A study of Mus musculus with 4 samples.

Results

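The genes described here are the transcription factors of the CREB family and the coactivators that bind them, measured by RNA sequencing in the hypothalamus of WD-fed male C57BL/6 mice. The 9 members, chosen by symbol, were Creb1, Crem, Atf1, Atf2, Crebbp, Ep300, Crtc1, Crtc2 and Crtc3, out of 16339 genes with counts. WT littermates and Tas1r3-/- mice, which are conventional knockouts that lack the sweet and umami taste receptor subunit in every tissue, were compared with 2 libraries in each group. All 4 libraries came from mice given the western diet (WD), which combined a diet of 60% fat and a drinking solution of 30% sucrose, for 12 weeks from 8 weeks of age, so no comparison with a normal diet was made here. The comparison asks whether loss of Tas1r3 under the WD was accompanied by a change in the mRNA of the CREB machinery.

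CREB family proteins are leucine zipper factors that bind cAMP response elements in promoters. A rise in cAMP or calcium activates kinases, among them protein kinase A and CaMKIV, which phosphorylate a serine in the kinase-inducible domain of CREB1, CREM and ATF1. That phosphoserine recruits the histone acetyltransferases CREBBP and EP300, while the CRTC coactivators enter the nucleus after dephosphorylation by calcineurin and bind the leucine zipper. In the hypothalamus this machinery couples peptide and nutrient signals to transcription of genes such as Bdnf and the neuropeptide genes. Much of this regulation acts on the proteins, which mRNA levels do not measure.

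The site of that phosphorylation lies within the part of Creb1 mRNA that the primers of the study amplify, and it is printed here because it shows what Creb1 and Atf1 share. The product spans exons 4 and 5 of the canonical Creb1 transcript in GENCODE M39, within the coding sequence, at chr1:64605434-64609328 on the forward strand of GRCm39, and is 79 bases long once the intron is removed. Both primers were found in 23 of the 28 Creb1 transcripts annotated and in transcripts of no other gene, so a product of this length does not distinguish most isoforms. Capitals mark the codon of the phosphorylated serine, which is residue 119 of the 327 residues of the canonical protein and residue 133 of the 341-residue isoforms. The same stretch of Atf1, on the forward strand of chromosome 15, places its serine at residue 63 of 269.
Creb1: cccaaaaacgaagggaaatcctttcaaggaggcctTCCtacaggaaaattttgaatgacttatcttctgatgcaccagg
Atf1: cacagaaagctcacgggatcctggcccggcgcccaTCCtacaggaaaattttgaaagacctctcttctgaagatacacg
Of the 79 bases, 54 were identical (68.4%), and the longest identical run was 20 bases.

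The libraries held between 5728729 and 6180137 estimated counts on named genes, and levels are given as CPM, the counts of a gene in every 1000000 counts of its library after TMM scaling. Tas1r3 itself was at 6.01 and 4.45 CPM in WT mice and at 1.12 and 1.23 CPM in Tas1r3-/- mice, a log2 fold change of -2.13 ± 0.42 with an adjusted p of 0.756 in edgeR's test. The genotype labels thus held in every library, although reads remained in both knockout libraries. The library labelled WT WD replicate 2 went against its tissue label. All 16 hypothalamic marker genes were lowest in it, with Nkx2-1 and Nr5a1 at 0, and all 10 thalamic markers were highest in it. The summed level of the hypothalamic markers was 79.3 CPM in it and between 1576 and 2250 CPM in the other 3, whereas the thalamic markers summed to 2528 CPM in it and to between 456 and 629 CPM in the others. Its level of Pmch, the melanin-concentrating hormone precursor of the lateral hypothalamus, was 6.59 CPM, against 374 to 768 CPM elsewhere. The choroid plexus markers that passed the filter, 4 of 7, also had their highest sum in this library (742 CPM against 39.3 to 58.1). So did those of cortex and hippocampus, 6 of 8 (380 CPM against 65.1 to 80.0), whereas striatum markers had their lowest sum in it (140 CPM against 272 to 425). The pituitary markers that passed the filter, 2 of 7, were highest in Tas1r3-/- WD replicate 1 (1104 CPM against 2.47 to 124). Results on the member genes are therefore also given without WT WD replicate 2, and the part that tissue composition has in the results was not tested. In bulk tissue, fewer cells of a type and less RNA per cell cannot be told apart.

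None of the 9 members was a differentially expressed gene, defined as one that changed by 1.5-fold or more with an adjusted p under 0.05 in edgeR's quasi-likelihood test. The same held for all 14344 genes tested (0% called), whose smallest adjusted p was 0.756, whereas 772 genes (5.38%) had an unadjusted p under 0.05. DESeq2 called 8 of 16339 genes (0.049%), none of them a member, and limma called 0. All 9 members passed the filter on low counts, and all 9 had a higher mean in Tas1r3-/- WD than in WT WD. In 4 of them, Creb1, Crebbp, Ep300 and Crtc2, both knockout libraries lay above both WT libraries, against 20.6% of all genes, and in none did both lie below, against 19% of all genes. The median log2 fold change was 0.29 over the members and -0.01 over all genes. How many of all genes had a higher knockout mean was not counted. The log2 fold changes of Atf1, Atf2, Crtc1 and Crtc2 were below 1 SE, and those of Atf1, Atf2 and Crtc1 changed sign in some other fits.

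**Figure D1:**
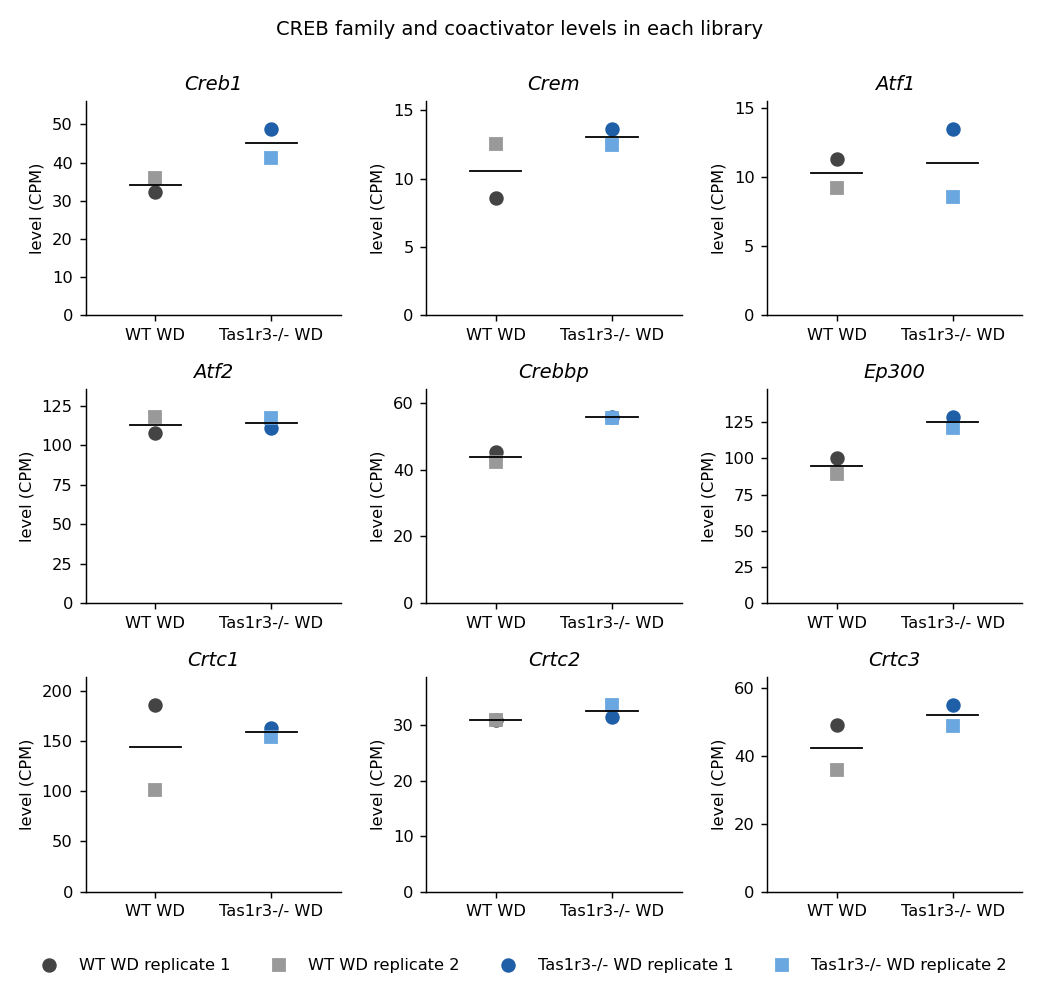
Level of each member (vertical axes, CPM from 0) in the single libraries of WT WD and Tas1r3-/- WD mice. Points are libraries and lines are means of 2. The groups are apart for Creb1, Crebbp and Ep300, touch for Crtc2, and overlap for the other 5, with Crtc1 and Crtc3 lowest in WT WD replicate 2.

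Among the factors, Creb1 gave the widest separation. Creb1, the founding CREB gene (chr1:64571731-64643707, forward strand), was at 32.3 and 35.9 CPM in WT mice and at 48.8 and 41.2 CPM in Tas1r3-/- mice. The lower knockout library thus exceeded the higher WT library. The fold change was 1.32 (log2 fold change 0.40 ± 0.16 SE, n = 2 libraries per group), with an adjusted p of 0.756 in edgeR's quasi-likelihood test. Counting alone gives a relative error of 6.51% at the mean of 236 counts, below the coefficient of variation of 12.0% between the knockout libraries. Without WT WD replicate 2 the log2 fold change was 0.48.

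Crem encodes activators and, from an internal promoter, cAMP-inducible repressors (chr18:3260980-3337748, reverse strand). Its level was 8.59 and 12.5 CPM in WT mice and 13.7 and 12.4 CPM in Tas1r3-/- mice. WT WD replicate 1 was low and the other 3 libraries were alike, so the groups overlapped. The log2 fold change was 0.31 ± 0.27 with all libraries and 0.60 without WT WD replicate 2, which left the low library as the only WT value, and it was 0.07 without WT WD replicate 1. Atf1, the third member of the subfamily with a kinase-inducible domain (chr15:100125664-100159129, forward strand), was at 11.3 and 9.23 CPM in WT mice and at 13.5 and 8.59 CPM in Tas1r3-/- mice. The 2 knockout libraries bracketed both WT libraries, and the log2 fold change of 0.11 ± 0.31 fell to -0.03 without WT WD replicate 2 and to -0.26 without Tas1r3-/- WD replicate 1, and was 0.39 without Tas1r3-/- WD replicate 2.

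Atf2, a factor that binds the same element but answers to stress kinases (chr2:73644562-73723111, reverse strand), showed the smallest fold change of the members. Its level was 108 and 118 CPM in WT mice and 111 and 117 CPM in Tas1r3-/- mice, so that the knockout values lay inside the WT range. The log2 fold change was 0.02 ± 0.13, and 0.08 without WT WD replicate 2.

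The paired acetyltransferases had fold changes of similar size. Crebbp, the CREB-binding protein gene (chr16:3899192-4031861, reverse strand), was at 45.2 and 42.2 CPM in WT mice and at 55.7 and 55.4 CPM in Tas1r3-/- mice. The knockout libraries differed from each other by less than the WT libraries did, and the groups did not overlap. The log2 fold change was 0.35 ± 0.12 (1.27-fold). Ep300, its paralog (chr15:81469540-81537206, forward strand), was at 100 and 89.1 CPM in WT mice and at 129 and 121 CPM in Tas1r3-/- mice. The groups were again apart, with a log2 fold change of 0.40 ± 0.13 (1.32-fold). These were the 2 members with an unadjusted p under 0.05, against 5.38% of all genes, but the adjusted p was 0.756 for each in edgeR's test. Their log2 fold changes were 0.30 and 0.32 without WT WD replicate 2.

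The 3 members with the clearest separation were also those with the longest transcripts. The canonical transcript measures 8.39 kb for Creb1, 10.8 kb for Crebbp and 10.6 kb for Ep300, while that of the other 6 members ranges from 2.41 kb for Atf1 to 6.65 kb for Atf2. Across the transcriptome, long genes were higher in both knockout libraries. Genes with a canonical transcript over 6 kb (n = 2471) deviated from their mean over libraries by a median log2 value of -0.07 and -0.09 in the WT libraries and of 0.10 and 0.07 in the knockout libraries, and genes under 1.5 kb (n = 1641) deviated by 0.08 and 0.07 in WT and by -0.06 and -0.05 in the knockouts. The 2 WT libraries deviated in the same direction in both classes. Among the 1026 genes with a transcript of at least 8 kb, the median log2 fold change was 0.25, and 53.6% had both knockout libraries above both WT libraries. In the distribution of these long genes Creb1 stood at percentile 73.3, Ep300 at 73.4 and Crebbp at 66.0, against percentiles 89.0, 89.0 and 86.2 among all genes tested.

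**Figure D2:**
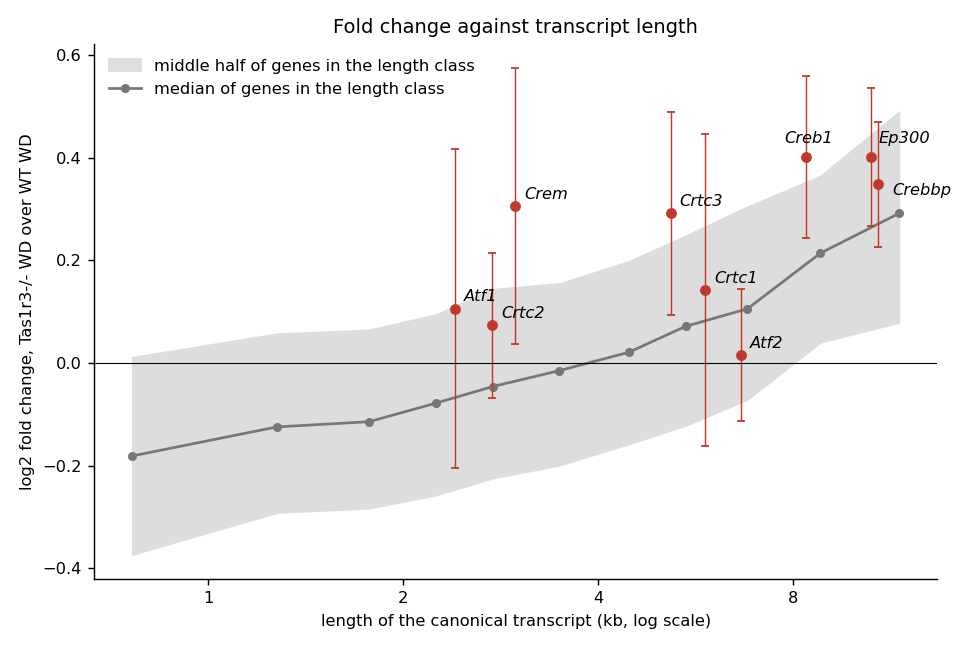
Log2 fold change of Tas1r3-/- WD over WT WD (vertical axis) against the length of the canonical transcript (horizontal axis, kb, log scale). Red points are the members with 1 SE, the grey line is the median of all genes in each of 11 length classes and the band holds the middle 50% of them. The median climbs from -0.18 in the shortest class to 0.29 in the longest, and Creb1, Crebbp and Ep300 sit at its long end.

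When the trend of each library on transcript length was removed by an offset in the edgeR fit, the log2 fold change of Creb1 was 0.21 ± 0.15, that of Crebbp 0.09 ± 0.12 and that of Ep300 0.15 ± 0.13. Both knockout libraries remained above both WT libraries for each of the 3. In this fit the same held for Crem and Crtc2, and for 16.6% of all genes. The fold changes of the shorter members Crem (0.31), Atf1 (0.14), Crtc2 (0.09) and Crtc3 (0.23) moved by less than 1 SE, and that of Atf2 turned to -0.10. The median of the members was 0.14 with this offset. With the offset and without WT WD replicate 2, an alternative chosen after the data were seen, the log2 fold changes were 0.30 for Creb1, 0.06 for Crebbp and 0.09 for Ep300. What produced the trend on length was not tested.

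Of the members, Crtc1 differed most between the WT libraries. Crtc1, the neuronal CRTC gene (chr8:70834994-70892394, reverse strand), was at 186 and 102 CPM in WT mice and at 163 and 155 CPM in Tas1r3-/- mice. The knockout values lay between the WT values, and the coefficient of variation was 41.6% in WT mice against 3.74% in Tas1r3-/- mice. The log2 fold change of 0.14 ± 0.30 turned to -0.23 without WT WD replicate 2 and became 0.65 without WT WD replicate 1. Each of these fits leaves a lone WT library, whose spread cannot be measured. The direction for Crtc1 thus depended on which WT library was kept.

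Crtc3 (chr7:80236375-80338685, reverse strand) was likewise lowest in WT WD replicate 2. It was at 49.3 and 35.8 CPM in WT mice and at 55.1 and 48.9 CPM in Tas1r3-/- mice, with WT WD replicate 1 inside the knockout range. Its log2 fold change was 0.29 ± 0.20 with all libraries, 0.08 when WT WD replicate 2 was left out and 0.55 without WT WD replicate 1. Crtc2, the member known for gluconeogenic control in liver (chr3:90161460-90171432, forward strand), was at 30.9 and 31.0 CPM in WT mice and at 31.5 and 33.7 CPM in Tas1r3-/- mice. The groups did not overlap, yet the fold change of 1.05 was smaller than the counting error of 7.27% at a mean of 189 counts. Its log2 fold change was 0.07 ± 0.14, 0.07 without WT WD replicate 2, 0.12 without Tas1r3-/- WD replicate 1 and 0.02 without Tas1r3-/- WD replicate 2.

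Over the family, leaving out WT WD replicate 2 gave 6 members in which both knockout libraries exceeded WT WD replicate 1, where 37.5% of all genes did so, and 1 member (Crtc1) in which both lay below it, where 37.4% of all genes did. The median of the members was then 0.08. The members above WT WD replicate 1 were Creb1, Crem, Atf2, Crebbp, Ep300 and Crtc2.

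**Figure D3:**
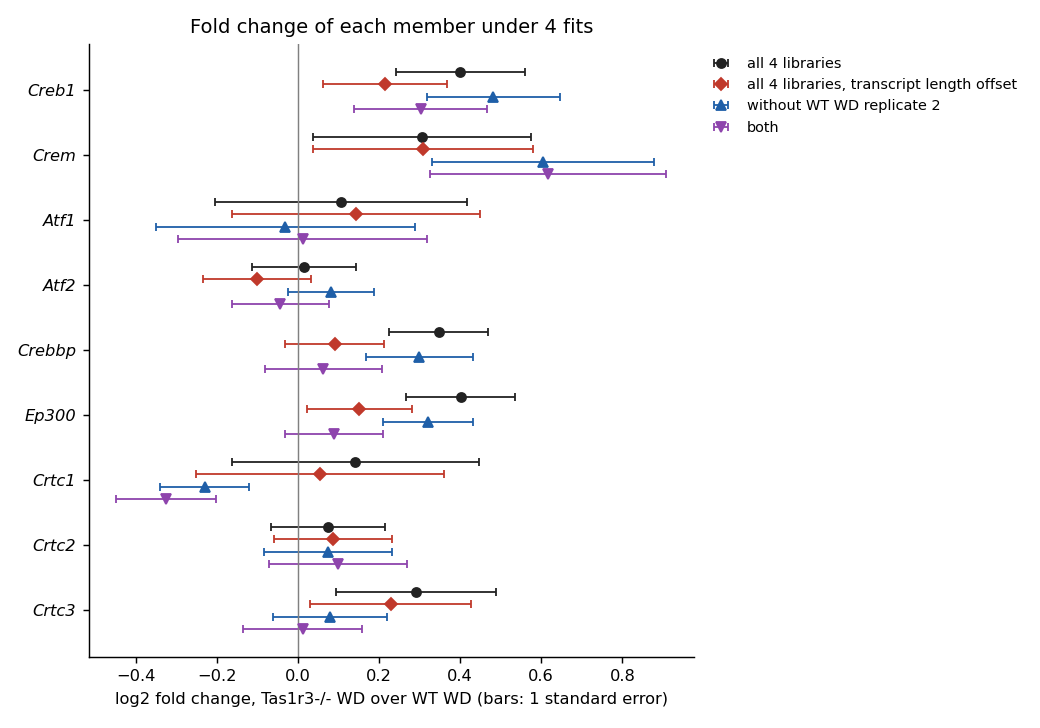
Log2 fold change of each member, Tas1r3-/- WD over WT WD, with 1 SE, under 4 edgeR fits: all libraries, the transcript length offset, WT WD replicate 2 left out, and both changes together ("both"). Creb1, Crem, Crebbp, Ep300, Crtc2 and Crtc3 stay above 0 in all 4, Crebbp and Ep300 shrink to 0.15 or less with the offset, and Crtc1 changes sign without WT WD replicate 2.

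Levels were compared between genes per kilobase of the canonical transcript. Crtc1 was the most abundant member at 25.8 ± 6.11 CPM per kb (SD over all 4 libraries), followed by Atf2 at 17.1 ± 0.728. Next were Crtc2 at 11.6 ± 0.471, Ep300 at 10.4 ± 1.73 and Crtc3 at 9.13 ± 1.58 CPM per kb. Creb1 stood at 4.72 ± 0.857, Crebbp at 4.59 ± 0.645, Atf1 at 4.43 ± 0.924 and Crem at 3.96 ± 0.743 CPM per kb. The ranges of neighbours in this order overlapped except between Atf2 and Crtc2 and between Crtc3 and Creb1, so the order within the last 4 was not resolved. Among 13958 genes with a known length, the level of Creb1 was at percentile 33.7 and that of Crtc1 at percentile 80.2. These values assume that the reads of a gene come from its canonical transcript.

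RefSeq lists several transcripts for 4 members, and the deposited counts divide the reads of a gene among them by estimation. Of the 27 transcripts listed for the members, 21 passed the filter and none was called, as with all 25699 transcripts tested (0% called; 4.59% at an unadjusted p under 0.05). In 5 of the 21 both knockout libraries were above both WT libraries (17.9% of all transcripts) and in 2 both were below (17.8% of all transcripts). DESeq2 called 6 of 30891 transcripts (0.0194%), none from a member. The smallest adjusted p of a member's transcript was 0.939 in edgeR's test.

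The 3 Creb1 transcripts were divided differently in libraries of the same group. NM_133828 was at 16.8 and 10.9 CPM in WT mice and at 24.0 and 20.7 CPM in Tas1r3-/- mice, without overlap, for a log2 fold change of 0.69 ± 0.34. NM_009952 was at 13.2 and 8.59 CPM in WT mice and at 9.62 and 18.6 CPM in Tas1r3-/- mice, so that the groups overlapped. NM_001037726 was at 2.43 and 16.5 CPM in WT mice and at 14.9 and 1.93 CPM in Tas1r3-/- mice, an 8.55-fold spread that crossed the groups. Its share of the gene's counts was 7.54% and 46.0% in WT mice and 30.6% and 4.70% in Tas1r3-/- mice. The separation seen for the summed gene therefore did not hold for each transcript. Without WT WD replicate 2 the log2 fold changes were 0.41, 0.10 and 1.79 in the order given.

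The division of Crem was less stable still. The gene had between 49.5 and 84.5 counts in a library, and 9 transcripts shared them. NM_001110857 held 32.5% of the counts in WT WD replicate 1 and at most 0.55% in any other library. NM_001110854 held 47.4% in WT WD replicate 2 and 2.18% in WT WD replicate 1, and NM_001110855 held 35.4% and 1.53% in those libraries. In Tas1r3-/- WD, NM_013498 held 48.5% in replicate 1 and 0.05% in replicate 2, whereas NM_001110855 held 1.20% and 43.7%. NM_001311067 was at 24.4% in Tas1r3-/- WD replicate 1 and at 0.35% in replicate 2. The leading transcript thus differed between the replicates of each group.

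Of the others, NM_001110853 had 0.0011 counts in WT WD replicate 1, 0 in WT WD replicate 2, where values under 0.001 were set to 0, and 3.96 and 11.8 counts in the knockout libraries. Since a value of 0 leaves room for up to 3 counts, the lower knockout value is close to that limit. NM_001110852 ranged from 0 to 6.98 counts, NM_001311066 from 0.70 to 9.04 and NM_001374833 from 2.56 to 12.3. Only NM_001110854, NM_001110855 and NM_001374833 passed the filter, with log2 fold changes of -1.06 ± 1.55, 0.26 ± 1.81 and 0.60 ± 0.97, none larger than 1 SE. Which of these accessions encode activators and which encode repressors was not analysed here.

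Atf2 was the member in which single transcripts separated while the gene did not. NM_001025093 was at 17.9 and 19.2 CPM in WT mice and at 27.4 and 35.3 CPM in Tas1r3-/- mice (log2 fold change 0.76 ± 0.26), and NM_009715 was at 21.7 and 20.2 CPM in WT mice and at 12.3 and 14.2 CPM in Tas1r3-/- mice (log2 fold change -0.65 ± 0.28). Replicates were close for NM_009715 and, in WT mice, for NM_001025093, whose knockout libraries lay further apart. The groups did not overlap for either transcript. The share of NM_001025093 in the gene's counts was 16.4% and 16.2% in WT mice and 24.8% and 30.1% in Tas1r3-/- mice. Neither passed the test, with adjusted p of 0.939 each in edgeR. Without WT WD replicate 2 the log2 fold changes were 0.81 and -0.70. The 2 other abundant transcripts, NM_001284369 and NM_001284373, had log2 fold changes of 0.03 ± 0.21 and -0.16 ± 0.26 and overlapping groups. Of the 3 scarcer ones, NM_001284376 was below WT in both knockout libraries (4.86 and 3.14 CPM in WT mice, 1.76 and 2.11 CPM in Tas1r3-/- mice).

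For Crtc2, the non-coding transcript NR_151631 was at 4.16 and 10.1 CPM in WT mice and at 13.5 and 12.5 CPM in Tas1r3-/- mice (log2 fold change 0.86 ± 0.53), while the coding NM_028881 and NM_001357152 had log2 fold changes of -0.24 ± 0.43 and -0.44 ± 0.63 and overlapping groups. That of NR_151631 was 1.64 without WT WD replicate 2. The other 5 members have 1 listed transcript each, which holds the counts of the gene. In the fit over transcripts the log2 fold change was 0.34 ± 0.18 for Crebbp and 0.39 ± 0.16 for Ep300, and neither had an unadjusted p under 0.05 there.

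**Figure D4:**
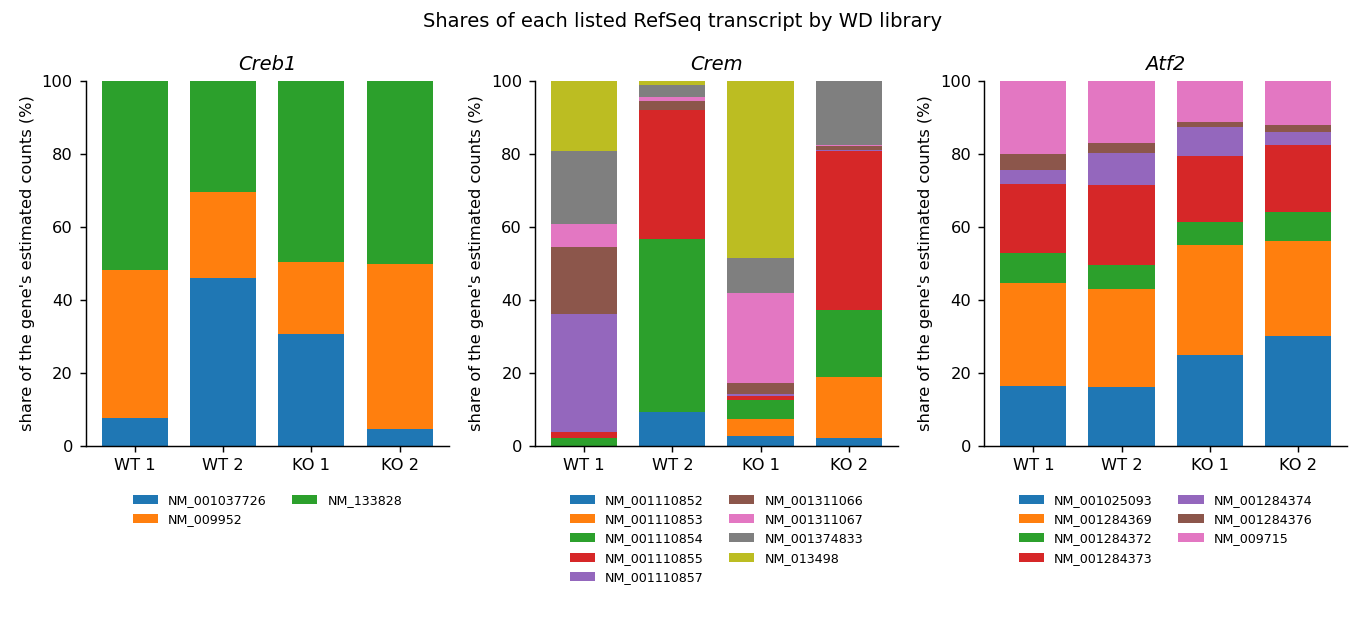
Share of the estimated counts of Creb1, Crem and Atf2 (vertical axes, percent) assigned to each listed RefSeq transcript in the 4 WD libraries (KO is Tas1r3-/-). For Creb1 and Crem the shares differ as much between replicates as between groups, whereas for Atf2 NM_001025093 is at 16.2% to 16.4% in WT WD and at 24.8% to 30.1% in Tas1r3-/- WD.

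Genes that act on the CREB machinery were grouped by role. No gene of any list was called by edgeR, and DESeq2 called 1, the target gene Fosb. Counts of genes above or below WT in both knockout libraries are given beside the shares of all genes that did so. Among 18 kinases that phosphorylate CREB or act in that cascade, the median log2 fold change was 0.01, 1 gene lay above WT in both knockout libraries (Rps6ka5, the MSK1 kinase, 0.11 ± 0.15) and 1 lay below (Rps6ka1), against 20.6% and 19% of all genes. Prkaca, the main catalytic subunit of protein kinase A, was at 377 and 350 CPM in WT mice and at 374 and 361 CPM in Tas1r3-/- mice, with the knockout values inside the WT range. Its paralog Prkacb was at 720 and 440 CPM in WT mice and at 700 and 724 CPM in Tas1r3-/- mice, so WT WD replicate 2 alone stood apart. Camk4, the nuclear calmodulin kinase, was at 36.4 and 54.5 CPM in WT mice and at 52.5 and 57.2 CPM in Tas1r3-/- mice, with WT WD replicate 1 alone low. Camk2a had a log2 fold change of -0.18 ± 0.17.

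Of 18 genes that set the location of the CRTC proteins, 2 lay above and 4 below, against 20.6% and 19% of all genes, with a median of -0.03. The salt-inducible kinases, which hold CRTC proteins in the cytoplasm, had log2 fold changes of -0.02 ± 0.19 for Sik1, 0.44 ± 0.17 for Sik2 and 0.10 ± 0.13 for Sik3. Sik2 was at 23.5 and 19.3 CPM in WT mice and at 28.6 and 29.5 CPM in Tas1r3-/- mice, without overlap. The calcineurin subunits Ppp3ca and Ppp3r1, which release CRTC proteins, gave 0.06 ± 0.14 and -0.02 ± 0.12. Of 9 genes of CREB phosphatases and their regulators, none lay above and 2 below, against 20.6% and 19% of all genes. Their median was -0.02, and the catalytic subunits Ppp1ca and Ppp2ca gave -0.17 ± 0.14 and -0.09 ± 0.18.

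Among 13 tested relatives with a leucine zipper, 6 lay above and 2 below, against 20.6% and 19% of all genes, around a median of -0.15. An unadjusted p under 0.05 was found for 4 of them, against 5.38% of all genes, all with a positive fold change (Atf3, Creb3l2, Crebl2 and Crebrf). Crebl2, a CREB-like protein that binds CREB1, was at 48.8 and 36.1 CPM in WT mice and at 64.7 and 57.5 CPM in Tas1r3-/- mice (log2 fold change 0.53 ± 0.19). Its transcript is 3.63 kb long and its log2 fold change was 0.52 with the length offset. Atf7, the closest relative of Atf2, had a log2 fold change of 0.32 ± 0.17, Atf4, the effector of the integrated stress response, -0.20 ± 0.15, and Creb5 -0.26 ± 0.35.

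Among 17 tested cofactors other than the members, 5 lay above and 2 below, against 20.6% and 19% of all genes, around a median of -0.00. The acetyltransferase gene Kat2b gave 0.23 ± 0.29, the coactivators Ncoa1 and Taf4 0.10 ± 0.13 and 0.16 ± 0.18, and Cited2, which competes for EP300, -0.14 ± 0.32. Kat6a and Ncoa3 were the 2 cofactors with an unadjusted p under 0.05, against 5.38% of all genes. Their log2 fold changes were 0.38 ± 0.12 and 0.49 ± 0.12.

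Without WT WD replicate 2 the median of the kinases was -0.02, that of the CRTC regulators -0.01 and that of the phosphatases 0.11. That of the leucine zipper relatives was 0.03 and that of the cofactors 0.14. Of these 5 lists, only the CRTC regulators kept the sign of the median. Among the genes named singly by role, the log2 fold changes of Prkaca (-0.04), Prkacb (-0.02), Camk2a (0.03) and Sik1 (0.18) changed sign. So did those of Ppp3ca (-0.03), Ppp2ca (0.11) and Cited2 (0.37). The others kept their sign, with Camk4 at 0.59 and Kat2b at 0.62. With the length offset only Ncoa1 of these genes changed sign, to -0.05. Sik1 was then at -0.22, Sik3 at 0.0005 and Creb5 at -0.42.

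Of 24 tested genes with known CREB binding sites, 12 lay above WT in both knockout libraries and 1 (Npas4) below, against 20.6% and 19% of all genes. Their median log2 fold change was 0.38. The list was chosen with earlier results of these data known, so these counts describe it and are not independent support. Without WT WD replicate 2 the median was 0.26, with 18 genes above WT WD replicate 1 and 3 below, against 37.5% and 37.4% of all genes. The length offset left the median at 0.41. An unadjusted p under 0.05 was found for 4 target genes, against 5.38% of all genes, and these were Egr1, Fos, Fosb and Per2, all with a positive fold change. Fosb, an AP-1 subunit gene, was at 5.67 and 4.12 CPM in WT mice and at 21.8 and 34.0 CPM in Tas1r3-/- mice (log2 fold change 2.51 ± 0.33). Its adjusted p was 0.756 in edgeR and 0.000128 in DESeq2. Egr1, a zinc finger immediate early gene, had a log2 fold change of 0.83 ± 0.13 and the clock gene Per2 one of 0.46 ± 0.16. Fos, an immediate early gene, was at 46.5 and 47.3 CPM in WT mice and at 66.0 and 71.0 CPM in Tas1r3-/- mice (log2 fold change 0.55 ± 0.12), and Nr4a1 gave 0.36 ± 0.16, with the groups apart in both. Bdnf, the neurotrophin gene, was at 19.1 and 22.1 CPM in WT mice and at 20.1 and 24.2 CPM in Tas1r3-/- mice, with overlapping groups and a log2 fold change of 0.11 ± 0.19. Per1 gave -0.01 ± 0.24. Without WT WD replicate 2 the log2 fold changes were 0.21 for Bdnf, 0.56 for Fos, 0.31 for Nr4a1 and 0.35 for Per1. Sst, the somatostatin gene, was at 188 and 25.5 CPM in WT mice and at 128 and 129 CPM in Tas1r3-/- mice, and its log2 fold change of 0.27 ± 0.86 turned to -0.55 without WT WD replicate 2. Several genes of this list, Fos among them, are also known to respond through elements that CREB does not bind.

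**Figure D5:**
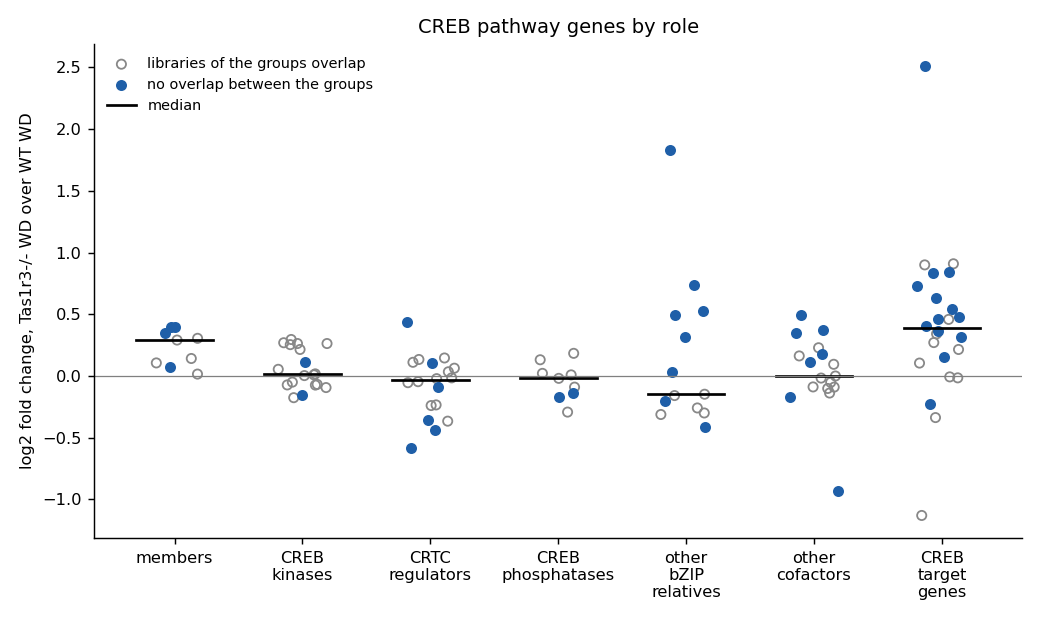
Log2 fold change, Tas1r3-/- WD over WT WD (vertical axis), of each tested gene by role, with the members first. Filled points are genes whose knockout libraries both lie above or both below the WT libraries, open points overlap, and bars are medians. The medians are 0.29 for the members and 0.38 for the target genes, and lie between -0.15 and 0.01 for the other 5 lists. Members and lists were chosen with earlier results of these data known.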

How the data were processed

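Hypothalamic mRNA was depleted of rRNA and sequenced from Ion Torrent libraries. Per the labels and the study's methods, the authors used STAR within Partek Flow for alignment to mm39 and RefSeq release 93 for quantification, and deposited estimated counts per transcript, without normalization. Each listed transcript totals at least 10 counts over the libraries, and 13.0% of values are whole. The design assumed gene counts, so the estimated counts were summed by symbol (30891 of 30930 transcripts named, with GRCm38.p6 RefSeq names, and the unnamed 0.347% to 2.49% of counts left out) and rounded.

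edgeR 4.0.16 was run with TMM scaling, filterByExpr, the quasi-likelihood test and Benjamini-Hochberg adjustment, on R 4.3.3. SE is the log2 fold change divided by the root of F. It was tested on simulated data. Alternatives used DESeq2 1.42.0, limma 3.58.1, other scalings and filters, offsets from loess trends on length or GC content, a replicate block and each library left out. Lengths and coordinates are from GENCODE M39 on GRCm39 (97.3% of genes tested had a length). The study's methods give more mice per group for RNA sequencing than the 2 libraries per group used here. Labels do not say whether libraries are single animals, so p-values measure the spread between libraries.

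Named were the members, Tas1r3, 25 genes chosen by role, list genes called or named as exceptions after their values were seen (Rps6ka1, Atf3, Creb3l2, Crebrf, Kat6a, Ncoa3, Npas4, Fosb, Egr1, Per2), all Creb1 and Crem transcripts and other transcripts with a share of at least 10%. Of the scarcer Atf2 transcripts, NM_001284376 was named after its values were seen. Members and lists were chosen with earlier results of these data known.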

Additional observations from a re-analysis of the deposited data

How the results depend on the processing

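With all libraries kept, 95 of 99 member values under the alternatives set in the design kept their direction and none passed an adjusted p of 0.05 (smallest 0.733). The exception was Atf2, at -0.10 with the length offset and at -0.10 with the GC offset, each with or without the replicate block. DESeq2 called 8 genes, and 83 genes were called with the length offset and WT WD replicate 2 left out. In that fit Atf2 was at -0.043 and Crtc1 at -0.32. The median of the members was 0.14 with the length offset, 0.12 with that offset and the replicate block, and 0.062 with the offset and without WT WD replicate 2. The GC offset, with or without the block, and the length offset without WT WD replicate 2 placed 1 member below WT instead of 0. Of all genes, 19.9% were below with the GC offset and 38.8% with the length offset without WT WD replicate 2. The same fits placed 5 members above WT, against 18.4% and 33.3% of all genes.

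Leaving out each library in turn gave 0 to 2122 called genes (2122 without WT WD replicate 1, and 32 when WT WD replicate 2 was left out), a member median between 0.082 and 0.36, 4 to 7 members above WT and 0 to 1 below. Of all genes, 29.2% to 41.6% were above and 30.1% to 40.5% below in these fits. Log2 fold changes ranged from 0.27 to 0.51 for Creb1, from 0.067 to 0.60 for Crem, from 0.30 to 0.40 for Crebbp, from 0.019 to 0.12 for Crtc2, from -0.26 to 0.39 for Atf1, from -0.042 to 0.082 for Atf2, from 0.32 to 0.49 for Ep300, from -0.23 to 0.65 for Crtc1 and from 0.079 to 0.55 for Crtc3. Each of these fits leaves a group with a lone library, whose spread cannot be measured, so adjusted p-values of the members are not given. Without WT WD replicate 1, the library with thalamic markers is the lone WT library. The highest values of Crebbp, Ep300, Crtc1 and Crtc3 came from that fit. The cause was not tested.

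For transcripts the same ranges were -2.28 to 1.79 for NM_001037726 and -0.18 to 0.78 for NM_009952 of Creb1, -2.22 to 2.93 for NM_001110854, -3.69 to 3.85 for NM_001110855 and -0.033 to 1.74 for NM_001374833 of Crem, -0.029 to 0.10 for NM_001284369 and -0.30 to 0.014 for NM_001284373 of Atf2, and -1.30 to 0.10 for NM_001357152 and -0.82 to 0.18 for NM_028881 of Crtc2. NM_133828, NM_001025093, NM_009715 and NR_151631 kept their direction.

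Replicate numbers were not treated as pairs. The labels give no shared origin. The correlation of deviations of same-numbered libraries was 0.08 over 14344 genes. It cannot decide on pairing, because the WT libraries also differed in tissue markers. Their root mean square log2 difference was 0.76, against 0.37 between the knockout libraries. With the replicate block 0 genes were called and Creb1 was at 0.40. With 2 libraries per group, the fold changes of Atf1, Atf2, Crtc1 and Crtc2 were below 1 SE.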
